A study of Mus musculus with 10 samples.

Results

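Syp, Syn2, Grin1 and Shank3 are 4 genes of the chemical synapse, and their levels were described in 10 RNA sequencing libraries of mouse cortex. They were chosen by name, and 4 of the 7384 genes that could be read from the opposite strand are described here. The libraries came from 5 mice homozygous for the dTPR1 allele of Stip1, aged 541 to 630 days, and from 5 wild-type mice, aged 442 to 663 days. All 10 were on a C57BL/6 background, and each library came from a piece of cortex of 1 hemisphere. Stip1 encodes STI1, a co-chaperone that links HSP70 and HSP90, and the dTPR1 allele lacks the TPR1 domain of that protein. Sex, the way the allele was made and the animals' litters are not given in the labels.

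A synapse passes a signal from a presynaptic bouton, which stores transmitter in vesicles, to a postsynaptic density, which holds the receptors. Syp encodes synaptophysin, an abundant membrane protein of synaptic vesicles, and Syn2 encodes synapsin II, which binds vesicles and holds them in a reserve near the release sites. Grin1 encodes the obligatory GluN1 subunit of NMDA receptors, the glutamate receptors that admit calcium when glutamate arrives at an already depolarised cell. Shank3 encodes a scaffold of the postsynaptic density that ties receptor complexes to Homer proteins and to actin. Together they mark both sides of excitatory synapses, although Syp and Syn2 are also used at inhibitory terminals.

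Each gene was read from the counts of an ID on the other strand, because 94.2% of all counts fell on IDs with an exon opposite to an exon of another gene. The deposited gene IDs of the 4 genes themselves held almost nothing. Over the 10 libraries, Syp had 104 counts at its own ID and 73541 at Gm14703, the ID opposite to it. Grin1 had 1 count at its own ID and 35753 at Grin1os. Shank3 had 64 counts at its own ID against 2276 at Gm15609, and Syn2 had 20 against 1411 at Timp4. The own ID thus held from 0.0028% (Grin1) to 2.81% (Shank3) of the counts at the opposite ID. Every level given here rests on this assignment, which was inferred from positions and not from reads.

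The 4 counted IDs face very different parts of their genes, and this sets what each level can stand for. Gm14703 (chrX:7651106-7657258, minus strand, GRCm38) has 1820 exon bases. Of these, 875 face the untranslated part of the last exon of Syp (chrX:7638471-7653256, plus strand), 731 face the intron before it and 214 lie beyond its end. Grin1os (chr2:25291220-25298925, plus strand) has 2891 exon bases, of which 1307 face exons of Grin1 (chr2:25291181-25319187, minus strand) and 1584 face introns. Of the 1307 bases, 1184 are coding. Gm15609 (chr15:89520096-89523677, minus strand) has 2960 exon bases, of which 271 face a coding exon of Shank3 (chr15:89499623-89560261, plus strand) and 2689 face introns.

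Syn2 is the extreme case. Timp4 (chr6:115241892-115252205, minus strand), a gene for an inhibitor of metalloproteinases that lies inside Syn2 (chr6:115134902-115282006, plus strand), has 5894 exon bases, and 90 of them face an exon of Syn2. The other 5804 bases, 98.5% of the ID, face introns of Syn2. Reads from spliced and from unspliced Syn2 RNA cannot be told apart in this count. Under the assignment used here, RNA of Timp4 itself would reach the Timp4 ID only in small part. The own IDs of the genes described held from 0.0028% (Grin1) to 2.81% (Shank3) of the counts at their opposite IDs. The part of Timp4 RNA in this count was not tested. In mammals the other synapsin genes also hold a Timp gene within their span, and those gave few counts here. Timp3, inside Syn3, faces 1733 exon bases of Syn3 and had 19 counts over the 10 libraries. Timp1, inside Syn1, faces no exon and had 6 counts, against the 1411 at Timp4.

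**Figure D1:**
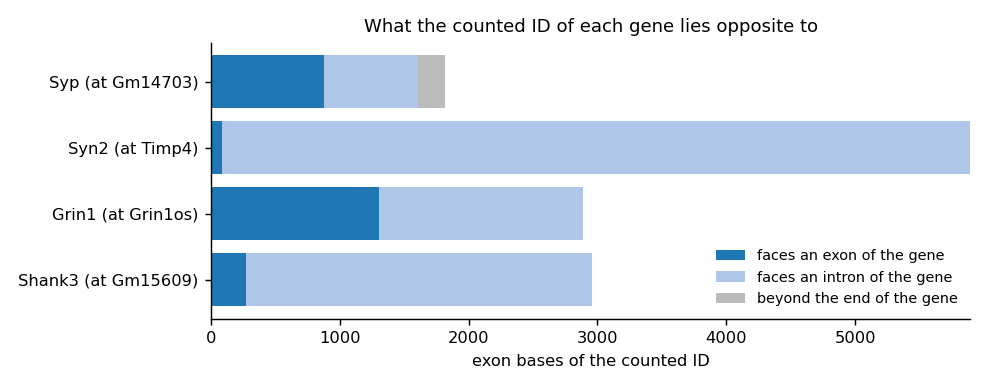
Exon bases of the ID at which each gene was counted, split by what they lie opposite to; the x axis is in bases and each row is 1 gene. Exons make up 48.1% of the bases for Syp and 45.2% for Grin1, against 9.16% for Shank3 and 1.53% for Syn2.

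The stretch of coding exon that faces the counted ID is shown for Syn2 and Shank3, because these are the only bases at which spliced messenger RNA of the gene itself could be counted. Capitals mark the bases opposite to the counted ID, and the 10 lower-case bases on each side are the neighbouring bases of the messenger RNA, from GENCODE M21 transcripts on build GRCm38, written 5′ to 3′ on the strand of the gene. For Syn2 the stretch is the whole of exon 5 of 13 in Syn2-201 (chr6:115244146-115244235, plus strand, 90 bases, 50% GC). For Shank3 it is exon 10 of 22 in Shank3-203 (chr15:89521103-89521373, plus strand, 271 bases, 59.8% GC).
Syn2 exon 5: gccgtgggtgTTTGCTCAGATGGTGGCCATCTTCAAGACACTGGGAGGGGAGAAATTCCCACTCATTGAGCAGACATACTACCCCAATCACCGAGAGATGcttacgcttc
Shank3 exon 10: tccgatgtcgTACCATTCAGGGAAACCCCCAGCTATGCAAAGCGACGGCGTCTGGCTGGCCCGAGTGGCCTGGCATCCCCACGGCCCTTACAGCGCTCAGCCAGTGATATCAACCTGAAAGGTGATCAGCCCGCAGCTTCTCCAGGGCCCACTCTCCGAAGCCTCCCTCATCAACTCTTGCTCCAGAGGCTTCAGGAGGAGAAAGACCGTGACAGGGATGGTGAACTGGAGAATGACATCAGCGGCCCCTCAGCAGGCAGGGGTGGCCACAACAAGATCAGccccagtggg
Of the 5894 exon bases of Timp4 and the 2960 of Gm15609, all others face introns. No stretch is shown for Syp, whose facing bases are all untranslated.

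The counted totals were low, and they are counts at gene IDs, not numbers of reads sequenced. Totals ran from 689226 to 924559 counts in dTPR1 homozygous animals and from 667751 to 927242 in wild-type animals, and 20.02% to 28.2% of counts lay on the mitochondrial genome. In counts per 1000000 counts of the library (CPM), 3 counts corresponded to 3.24 to 4.49 CPM. No molecular identifiers are named in the labels, so what is given as counting error covers the counting of reads only. Tissue identity could be checked in part. Of 10 neuronal markers listed, 3 had a counted opposite ID, with a summed level of 3028 to 5102 CPM in dTPR1 homozygous and 2640 to 4000 CPM in wild-type libraries, nearly all from the neurofilament gene Nefl. By the same assignment Nefl was read at the ID of Nefm (28535 counts over the 10 libraries) and Nefm at the ID of Nefl (98 counts). Neurod1, a transcription factor gene of excitatory neurons, averaged 269.0 ± 111.0 CPM in dTPR1 homozygous and 228.7 ± 151.1 CPM in wild-type cortex (SD, n = 5 each). None of the 8 oligodendrocyte markers had an opposite ID. In edgeR 0 marker genes of inhibitory neurons, striatal neurons, astrocytes, oligodendrocyte precursors, microglia, endothelium, mural cells, choroid plexus or thalamus passed an adjusted p of 0.05. At an unadjusted p under 0.05 there were 2, against 57 of 2019 genes (2.82%) over all tested. They were Bcas1, 1 of 2 tested genes listed for oligodendrocyte precursors (log2 fold change 0.62), and Penk, 1 of 4 for striatal neurons (log2 fold change -1.80). With no oligodendrocyte marker to read, Bcas1 could not be placed in precursors rather than in later cells of that lineage. Inhibitory neurons had 3 tested markers. Astrocytes, mural cells, choroid plexus and thalamus had 2 each, and microglia and endothelium 1 each. With so few markers tested, 2 was a larger share than the 2.82% over all genes tested.

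No difference between genotypes was detected in any of the 4 genes. In edgeR's quasi-likelihood test with Benjamini-Hochberg adjustment over 2019 genes, 0 of the 4 passed an adjusted p of 0.05, as did 0 genes (0%) of all tested. At an unadjusted p under 0.05 the 4 genes also gave 0, against 57 of 2019 (2.82%). The genotypes overlapped in all 4, and 8 of 2019 genes (0.396%) had groups that did not overlap. All 4 fold changes were above 0, as were 50.2% of those of all genes tested. In bulk tissue, fewer cells of a type and less RNA per cell cannot be told apart, so neither can be read from these levels.

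Syp, the vesicle protein gene, was the most abundant. It stood at 9441, 8316, 10087, 10413 and 10018 CPM in dTPR1 homozygous animals 1 to 5, against 10887, 8602, 7652, 7122 and 9524 CPM in wild-type animals 1 to 5. The highest library and the 2 lowest were wild type, and the dTPR1 homozygous animals lay within that range. Means were 9655 ± 826 CPM in dTPR1 homozygous and 8758 ± 1503 CPM in wild-type cortex (SD, n = 5 each). The log2 fold change in edgeR was 0.13 ± 0.14 (SE), with a 95% interval of -0.16 to 0.43 (adjusted p = 0.999; exact permutation p = 0.28, two-sided). A ratio of dTPR1 homozygous over wild type below 0.898 or above 1.34 lies outside that interval. The fold change was 0.07 without wild-type animal 4 and 0.22 without wild-type animal 1.

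Syn2, read at Timp4, had the largest fold change of the 4 genes and the fewest counts, from 75 to 196 per library. It stood at 242.9, 195.0, 155.2, 185.0 and 219.3 CPM in dTPR1 homozygous animals 1 to 5, against 159.9, 183.3, 85.0, 218.6 and 142.2 CPM in wild-type animals 1 to 5. Wild-type animal 3 was the lowest of all 10 libraries, and 4 of 5 dTPR1 homozygous animals lay above the wild-type mean. Means were 199.5 ± 33.4 CPM in dTPR1 homozygous and 157.8 ± 49.8 CPM in wild-type cortex (SD, n = 5 each). The log2 fold change was 0.34 ± 0.25 (SE), with a 95% interval of -0.18 to 0.85 (edgeR adjusted p = 0.999; exact permutation p = 0.16, two-sided). Without wild-type animal 3 it was 0.18, and without wild-type animal 4 it was 0.47.

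Grin1, the NMDA receptor subunit gene, was nearest to no difference. It stood at 4764, 3471, 4995, 5272 and 4150.4 CPM in dTPR1 homozygous animals 1 to 5, against 4797, 3757, 3687, 4768 and 5131 CPM in wild-type animals 1 to 5. The 2 genotypes covered almost the same range, with dTPR1 homozygous animals at both ends. Means were 4531 ± 722 CPM in dTPR1 homozygous and 4428 ± 660.5 CPM in wild-type cortex (SD, n = 5 each). The log2 fold change was 0.03 ± 0.14 (SE), with a 95% interval of -0.27 to 0.33 (edgeR adjusted p = 0.999; exact permutation p = 0.79, two-sided). In terms of ratios, the interval ran from 0.831 to 1.26. With 1 library left out the fold change ran from -0.03, without dTPR1 homozygous animal 4, to 0.13, without dTPR1 homozygous animal 2, and it was also below 0 without wild-type animal 3 (-0.02).

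Shank3, the scaffold gene, had the largest coefficient of variation within genotypes of the 4, although Syn2 had the larger fold between its highest and lowest library (2.86 for Syn2 and 2.54 for Shank3). It stood at 250.3, 209.3, 313.4, 459.7 and 244.4 CPM in dTPR1 homozygous animals 1 to 5, against 180.8, 227.6, 209.6, 347.4 and 379.1 CPM in wild-type animals 1 to 5. dTPR1 homozygous animal 4 was the highest of all and wild-type animal 1 the lowest, and 2 of 5 dTPR1 homozygous animals exceeded the wild-type mean. Means were 295.4 ± 99.2 CPM in dTPR1 homozygous and 268.9 ± 88.5 CPM in wild-type cortex (SD, n = 5 each). The log2 fold change was 0.14 ± 0.25 (SE), with a 95% interval of -0.38 to 0.66 (edgeR adjusted p = 0.999; exact permutation p = 0.67, two-sided). With 1 library left out it ran from -0.09, without dTPR1 homozygous animal 4, to 0.28, without wild-type animal 5, and it was 0.03 without wild-type animal 1.

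**Figure D2:**
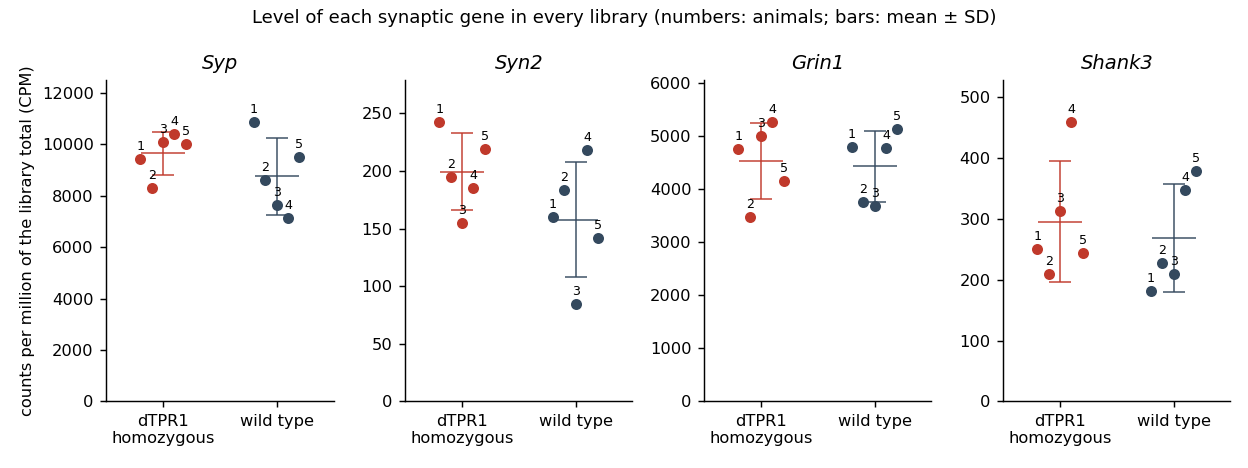
CPM of each gene (y axis, from 0) in the 5 dTPR1 homozygous and the 5 wild-type libraries; points are animals with their numbers, and bars are the mean ± SD. The groups overlap in all 4 genes, with Syn2 of wild-type animal 3 at 85.0 CPM and Shank3 of dTPR1 homozygous animal 4 at 459.7 CPM at the ends of their ranges.

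Levels of different genes were compared per kilobase, and the order of the lower 2 depended on which bases were taken. Per kilobase of the counted ID, Syp averaged 5305 ± 454 CPM in dTPR1 homozygous and 4812 ± 826 CPM in wild-type libraries, and Grin1 averaged 1567 ± 249.9 CPM in dTPR1 homozygous and 1532 ± 228 CPM in wild-type libraries (SD, n = 5 each). On that scale Shank3 ran from 70.7 to 155.3 CPM per kilobase in dTPR1 homozygous and from 61.1 to 128.1 in wild-type libraries. Syn2 ran from 26.3 to 41.2 in dTPR1 homozygous and from 14.4 to 37.1 in wild-type libraries, so it lay below Shank3 without overlap. Per kilobase of facing exon the order of these 2 turned round: Syn2 averaged 2216 ± 371 CPM in dTPR1 homozygous and 1753 ± 553 CPM in wild-type libraries, and Shank3 averaged 1090.1 ± 366 CPM in dTPR1 homozygous and 992.2 ± 326 CPM in wild-type libraries. On that scale the ranges of Syn2 and Shank3 overlapped, while Syp lay above Grin1 in every library on both scales.

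Ratios of counts within a library do not depend on its total. The ratio of Syp to Grin1 was 2.16 ± 0.227 in dTPR1 homozygous and 2.00 ± 0.331 in wild-type libraries (exact two-sided permutation p = 0.40, SD over 5 animals each). The ratio of Grin1 to Shank3, the receptor subunit to the scaffold, was 16.002 ± 2.79 in dTPR1 homozygous and 17.6 ± 5.31 in wild-type libraries (exact permutation p = 0.64). The permutation tests were of log2 ratios, and no difference was detected in either. Of the 6 pairs, Syn2 to Grin1 had the lowest p (exact two-sided permutation p = 0.20). That ratio was 0.045 ± 0.011 in dTPR1 homozygous and 0.036 ± 0.011 in wild-type libraries.

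The order of the genes per kilobase of counted ID was also the order of the share of the ID that faces exons. Over 1665 tested genes counted at 1 ID, the 383 whose ID faced exons over at least 40% of its length had a median of 88.2 CPM per kilobase of ID, and the 564 under 10% had 8.88. Syp and Grin1 belong to those 383, and Syn2 and Shank3 to the 564. Syp ranked 8 and Grin1 21 by mean CPM among the 2019 genes tested, against 371 for Shank3 and 510 for Syn2.

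Counting error was a small part of the spread in the abundant pair and a larger part in the scarce pair. The coefficient of variation (CV) within genotypes was 13.2% for Syp and 15.5% for Grin1, where counting alone would give 1.19% and 1.70%. For Syn2 the CV was 23.7% and for Shank3 33.3%, where counting alone would give 8.73% and 7.02%. The spread was therefore 11.1 times the counting error for Syp and 9.07 times for Grin1, against 2.72 times for Syn2 and 4.75 times for Shank3.

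Set beside genes with a mean count within 2-fold of its own, Shank3 was more variable than most. Of 388 such genes, 81.4% had a lower CV than Shank3, and their median was 23.7%. For Syn2 31.9% of 499 genes had a lower CV, and for Syp 31.2% of 16 genes. Grin1 sat in the middle, with a lower CV in 21 of 42 genes. By genotype, the CV of Syp was 8.56% in dTPR1 homozygous and 17.2% in wild-type libraries, and that of Syn2 16.7% in dTPR1 homozygous and 31.5% in wild-type libraries. For Grin1 it was 15.9% in dTPR1 homozygous and 14.9% in wild-type libraries, and for Shank3 33.6% in dTPR1 homozygous and 32.9% in wild-type libraries. The difference in spread between genotypes was not tested. The SE of the log2 fold change, 0.14 for Syp and Grin1 and 0.25 for Syn2 and Shank3, was below the median of 0.42 over all genes tested.

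**Figure D3:**
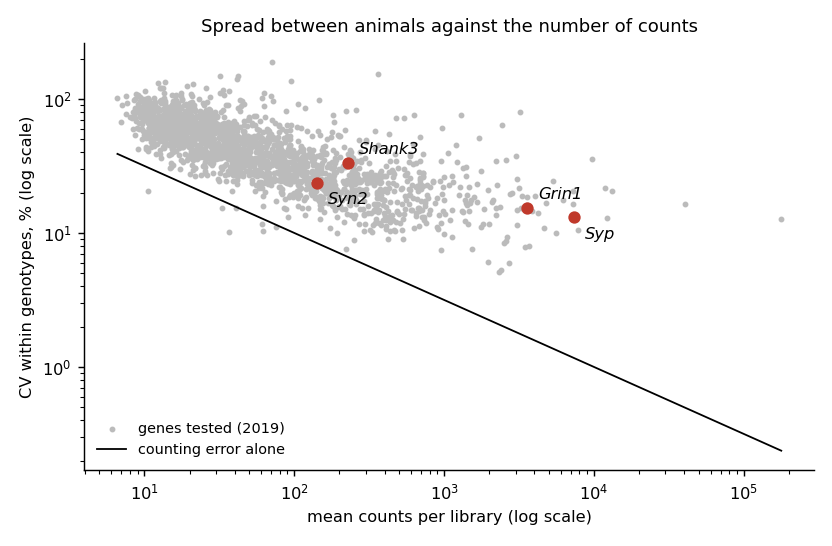
Coefficient of variation within genotypes (y axis, %, log scale) against mean counts per library (x axis, log scale) for the 2019 genes tested; the line is the CV that counting error alone gives. Syp and Grin1 lie far above the line at 13.2% and 15.5%, and Shank3 lies above Syn2 at 33.3% against 23.7%.

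Of the 6 pairs, levels of Grin1 and Shank3, the 2 postsynaptic genes, went together most closely across the libraries. Over log2 CPM of 10 libraries Pearson's r was 0.69 (permutation p = 0.029, two-sided) and Spearman's rho 0.71 (permutation p = 0.026). Adjusted over the 6 pairs of the 4 genes, these became 0.17 and 0.15, which does not pass 0.05. With totals free of mitochondrial counts r was 0.65 and rho 0.84 (permutation p = 0.0038, adjusted p = 0.023), so rho passed on that scaling. Without dTPR1 homozygous animal 2 and wild-type animal 3, the libraries farthest from the median of Grin1, r was 0.61 (exact permutation p = 0.11). Wild-type animal 1, with Shank3 at 180.8 CPM and Grin1 at 4797 CPM, was the library that departed most, and r was 0.89 without it (exact permutation p = 0.0028, adjusted p = 0.017). That library was singled out after the values were seen.

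Syp and Grin1 gave r = 0.52 (permutation p = 0.13) and rho = 0.65 (permutation p = 0.049), with adjusted p of 0.38 and 0.15. Without wild-type animals 3 and 4, r was 0.78 (exact permutation p = 0.025, adjusted p = 0.15). Scaled to totals without mitochondrial counts, r was 0.39 over the 10 libraries. The other 4 pairs had r of 0.09 for Syp and Shank3, 0.16 for Syp and Syn2, 0.20 for Syn2 and Grin1 and 0.16 for Syn2 and Shank3, with adjusted permutation p of 0.80 to 0.81. For the 3 pairs that include Syn2, r turned negative without wild-type animal 3, the library with the lowest Syn2. For the 2 vesicle genes no relation was detectable in 10 libraries.

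Striatal markers ran against some of these levels, with no adjusted p under 0.05 in CPM of the library total. The striatal list, markers of medium spiny neurons, had a counted opposite ID for 4 of its 13 genes (Penk, Ppp1r1b, Rarb and Syndig1l), and none of the 4 was at 0 in every library. Their summed level was 388.3 to 2189 CPM in dTPR1 homozygous and 803.3 to 5306 CPM in wild-type libraries. All 4 had log2 fold changes below 0, from -1.80 to -0.95 with a median of -1.28, and 0 passed an adjusted p of 0.05 in edgeR. Across the 10 libraries their mean log2 CPM ran against Grin1 with r = -0.77 (permutation p = 0.0095; rho = -0.77, permutation p = 0.013). It ran against Syp with r = -0.76 (permutation p = 0.011; rho = -0.65, permutation p = 0.049). Adjusted over 16 relations of the 4 genes with library properties, both p for r became 0.085, and those for rho 0.17 and 0.20. Scaled by TMM factors, rho of Grin1 was -0.85 (permutation p = 0.0028, adjusted p = 0.046) and r was -0.71 (adjusted p = 0.31). For Syp on that scaling r was -0.61 (permutation p = 0.060, adjusted p = 0.45) and rho -0.52 (adjusted p = 0.43). With totals free of mitochondrial counts, rho of Grin1 was -0.82 (adjusted permutation p = 0.092) and r of Syp -0.60 (adjusted permutation p = 0.41). In CPM of the library total, Shank3 gave r = -0.55 and Syn2 r = -0.34, with adjusted permutation p of 0.32 and 0.49.

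Without wild-type animal 3 and dTPR1 homozygous animal 4, the libraries with the highest and lowest striatal level, r was -0.65 for Grin1 and -0.68 for Syp (exact permutation p = 0.092 and 0.060), and rho was -0.64 and -0.45. For Shank3 r was then -0.12 and rho -0.36 (exact permutation p = 0.77 and 0.39), where rho over the 10 libraries was -0.61 (permutation p = 0.066, adjusted p = 0.21). With the striatal level in the edgeR model the log2 fold changes became -0.15 for Grin1, -0.17 for Shank3, 0.03 for Syp and 0.35 for Syn2, none with an adjusted p under 0.05. The part of striatal tissue in the levels of the 4 genes was not tested.

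Other library properties gave no relation that passed adjustment. The mitochondrial share of counts ran against Grin1 with r = -0.64 (permutation p = 0.041, adjusted p = 0.22) and rho = -0.68 (permutation p = 0.034, adjusted p = 0.18). Without wild-type animals 2 and 3, r was -0.30 and rho -0.62 (exact permutation p = 0.50 and 0.11). A share of counts taken by mitochondrial RNA lowers the CPM of every other gene, and with totals free of mitochondrial counts r was -0.46. Age ran against Shank3 with r = -0.55 (permutation p = 0.092) and rho = -0.73 (permutation p = 0.022), with adjusted p of 0.32 and 0.17. Without wild-type animal 4 and dTPR1 homozygous animal 5, r was -0.80 (exact permutation p = 0.022, adjusted p = 0.35) and rho -0.88 (exact permutation p = 0.0067, adjusted p = 0.11). Over the 10 libraries rho was -0.77 when scaled by TMM factors (permutation p = 0.012, adjusted p = 0.0996). It was -0.70 with totals free of mitochondrial counts (adjusted permutation p = 0.25). Library totals gave r between -0.35 and 0.25 for the 4 genes.

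**Figure D4:**
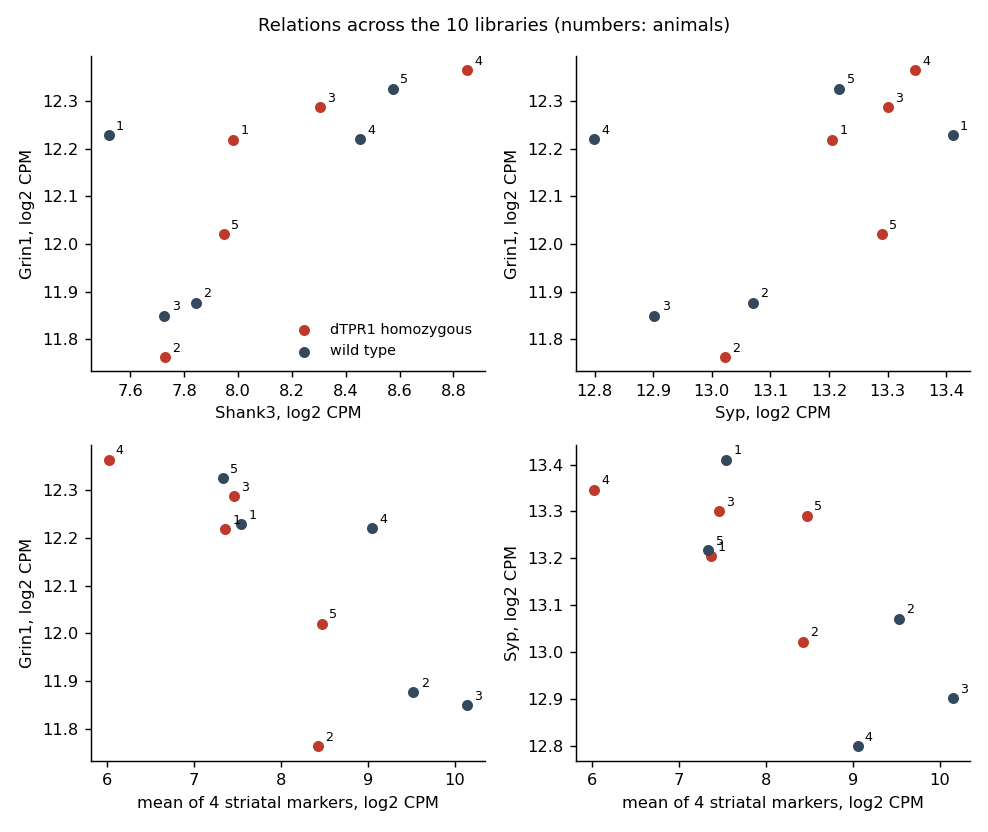
Log2 CPM of Grin1 against Shank3 and against Syp, and of Grin1 and Syp against the mean log2 CPM of 4 striatal markers; points are the 10 libraries, with animal numbers and colours by genotype. Grin1 and Shank3 go together with r = 0.69, and wild-type animals 2 and 3 combine the highest striatal levels with low Grin1.

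By a fixed rule, the 3 genes most like each of the 4 were named from 976 others with a mean of at least 50 counts, by Pearson's r of deviations from the genotype means over 10 libraries. With so many genes and so few libraries such high values are picked from a wide spread, and no test was made. Grin1 was most like Bhlhe40, a transcriptional repressor induced by activity (r = 0.95), St8sia5, a ganglioside sialyltransferase (0.95), and Pip4k2c, a lipid kinase (0.94). For Shank3 they were Ap1g1, an adaptor subunit of vesicle coats (0.93), Nab2, a co-repressor of Egr factors (0.90), and Hpca, the neuronal calcium sensor hippocalcin (0.90). For Syp they were Rell2 (0.86), the lipid kinase gene Pi4ka (0.84) and the organic anion transporter gene Slco2b1 (0.82).

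Syn2 was most like Mfhas1 (r = 0.89), the adaptor gene Ap1g2 (0.89) and Gm43720 (0.84). The 4 genes were not among each other's nearest. Grin1 ranked 46 among the 976 for Shank3 and 71 for Syp, and Syn2 ranked 538 for Syp. In the other direction, Shank3 ranked 98 and Syp 184 for Grin1, and Syp ranked 524 for Syn2. Grin1 had 40 genes with r above 0.8 and Shank3 16, against 8 for Syn2 and 4 for Syp.

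Other synaptic genes were read in the same way from 4 lists of 173 names in all, of which 31 could be tested, the 4 genes included. In edgeR 0 of the 31 passed and 1 had an unadjusted p under 0.05. Of the 27 others, 13 had fold changes above 0 and 14 below 0, with a median log2 fold change of -0.01, against 0.00 over all genes tested.

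Among synaptic vesicle proteins 7 of 42 were tested, 4 above 0 and 3 below 0. Slc32a1, the GABA loader of vesicles, averaged 714.7 ± 357.4 CPM in dTPR1 homozygous and 1012 ± 522 CPM in wild-type cortex (SD, n = 5 each), a log2 fold change of -0.55 ± 0.42 (SE). It was -0.26 without wild-type animal 3 and -0.85 without dTPR1 homozygous animal 2. Syt4, a synaptotagmin, was at 0.22 ± 0.17 on the same scale, at 0.15 without wild-type animal 2 and at 0.39 without wild-type animal 4. Syn1, the close relative of Syn2, had 122 counts over the 10 libraries and a 95% interval of -1.18 to 1.92, so it could not be set against Syn2.

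Of 49 genes of the release machinery and active zone 11 were tested, 4 above 0 and 7 below 0. The presynaptic adhesion gene Nrxn2 averaged 3233 ± 434 CPM in dTPR1 homozygous and 3575 ± 828.9 CPM in wild-type cortex, a log2 fold change of -0.16 ± 0.17 (SE), which was 0.01 without wild-type animal 2 and -0.24 without wild-type animal 3. The endocytic adaptor gene Ap2a2 was at 0.37 ± 0.21, the active zone gene Erc1 at -0.18 ± 0.15 and the P/Q-type calcium channel gene Cacna1a at -0.11 ± 0.19. Without wild-type animal 4, Erc1 was at -0.12 and Cacna1a at -0.01, and Ap2a2 was at 0.22 without dTPR1 homozygous animal 1. Without dTPR1 homozygous animal 3, Cacna1a was at -0.21 and Erc1 at -0.22, and Ap2a2 was at 0.54 without wild-type animal 5. Of these, Nrxn2 and Erc1 act on the same side of the synapse as Syp and Syn2.

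Glutamate receptor genes and their auxiliary proteins were tested in 7 of 33 cases, 5 above 0 and 2 below 0. Beside Grin1, the NMDA receptor subunit gene Grin2c averaged 262.8 ± 62.1 CPM in dTPR1 homozygous and 277.7 ± 65.6 CPM in wild-type cortex, a log2 fold change of -0.08 ± 0.21 (SE), which was 0.02 without dTPR1 homozygous animal 4 and -0.21 without wild-type animal 3. Cnih2, an auxiliary protein of AMPA receptors, was at 0.52 ± 0.33, at 0.22 without dTPR1 homozygous animal 4 and at 0.65 without dTPR1 homozygous animal 1. Grin2d was at -0.62 ± 0.62, at -1.70 without dTPR1 homozygous animal 2, its highest library, and at -0.34 without dTPR1 homozygous animal 3.

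Postsynaptic scaffold and signalling genes were tested in 6 of 49 cases, 4 above 0 and 2 below 0. Iqsec1, an exchange factor that acts on receptor traffic, averaged 4154 ± 489 CPM in dTPR1 homozygous and 3658 ± 664 CPM in wild-type cortex. Its log2 fold change was 0.18 ± 0.14 (SE), 0.12 without wild-type animal 3 and 0.26 without wild-type animal 4. Homer3, whose protein family binds Shank proteins, had the unadjusted p under 0.05. Its log2 fold change was 0.76 ± 0.35, with an edgeR p of 0.048 and an adjusted p of 0.999. Without dTPR1 homozygous animal 4, which stood at 656.5 CPM, it was 0.17, and without dTPR1 homozygous animal 1 it was 0.94. The adhesion gene Lrrtm4 was at -0.34 ± 0.22, at -0.17 without wild-type animal 3 and at -0.50 without dTPR1 homozygous animal 1.

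**Figure D5:**
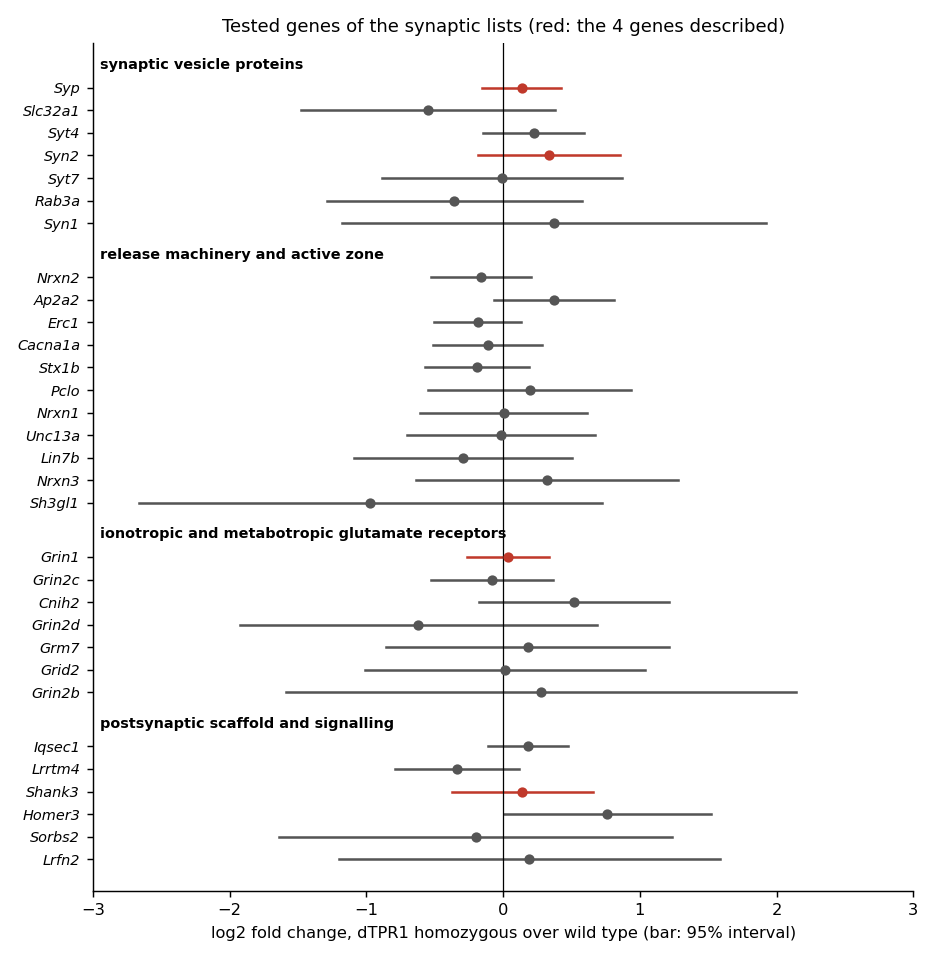
Log2 fold change of dTPR1 homozygous over wild type (x axis) with 95% intervals from edgeR for the 31 tested genes of the 4 synaptic lists, with the 4 genes described in red. The intervals of Syp, Syn2, Grin1 and Shank3 all include 0, and those of Syp and Grin1 are among the narrowest.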

How the data were processed

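Per the labels, total RNA from cortex was extracted with TRIzol and made into single-end libraries with the SENSE Total RNA-Seq kit. The tools named in the submitters' processing notes are TopHat, HTSeq and DESeq2, and the build named there is GRCm38.p5; versions and strand settings are not given in the sources used here. The values deposited by the authors are raw counts for 53090 gene IDs in each library (totals 667751 to 927242), and 0 rows name no gene. With GENCODE M21, which holds 52403 of the IDs, an ID's counts went to a gene if that gene made up 90% or more of the exon sequence facing the ID on the other strand (8188 IDs, 7384 genes, 88.0% of counts). The 4 genes, the lists and the tests were chosen with earlier results of these data known.

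The genotype fit used edgeR 4.0.16 (R 4.3.3), TMM factors, filterByExpr and robust quasi-likelihood tests; all 4 genes passed the filter. CPM used the total over all IDs, and log2 CPM a prior count of 2. Correlations used 100000 resamples for 10 libraries and all arrangements for fewer; exact tests between genotypes used 252 arrangements (smallest p 0.00794). Up to 4 tested genes with most counts were named per list, and 3 alike genes per gene; Syn1, Timp1, Timp3, Nefl, Neurod1, Bcas1 and the striatal markers were named after their values were seen. Alternatives were other scalings, filters, tests (DESeq2 1.42.0, limma-voom 3.58.1), covariates, assignment shares and left-out libraries. The fit and the correlations were tested on simulated data. Nothing in the labels says that animals share a litter or batch, and no 2 libraries agreed within sampling noise. Some items of the marker lists and 1 exon sequence are not reported here.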

Additional observations from a re-analysis of the deposited data

Results flagged for a closer look

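Among the values of Syp, Syn2, Grin1 and Shank3, no library stood far from the other 4 of its genotype. Over 64 groups of 5 values examined, those of the other named genes and the library properties included, 4 had such a library, where chance gives about 1 in 20, or 3.2. Homer3 was at 656.5 CPM in dTPR1 homozygous animal 4, far above the others, and that animal also had the highest Shank3 and the lowest striatal level. Grin2d was at 78.9 CPM in dTPR1 homozygous animal 2, the highest of its group. Cnih2 was at 38.9 CPM in wild-type animal 4, the lowest of its group. Gm43720, among the genes most like Syn2, was at 13.6 CPM in wild-type animal 3, the lowest of its group, in the animal that was also lowest for Syn2.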

How the results depend on the processing

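The number of genes called by genotype was 0 in edgeR and stayed at 0 with DESeq2, limma-voom, a filter of 1 CPM in 5 libraries (3279 genes), the other scalings, both other assignment shares, age or striatal level in the model, without mitochondrial IDs, on gene IDs as deposited and with each library left out (0 to 0). At an unadjusted p under 0.05 there were 138 of 5176 genes in DESeq2 and 90 of 2019 in limma-voom, and in edgeR 102 without wild-type animal 5 and 89 without dTPR1 homozygous animal 2, against 57. Without a filter on low counts 2 of 5176 genes were called (Fam184b and Prox1os, 542 at an unadjusted p under 0.05); the cause was not tested. Animal numbers did not pair the libraries: same-numbered deviations correlated at -0.11 to 0.10. With animal number as replicate block, 0 genes were called, and the log2 fold changes were 0.14 for Syp, 0.38 for Syn2, 0.02 for Grin1 and 0.13 for Shank3.

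For the 4 genes, no setting brought an adjusted p under 0.05. With the striatal level in the model the signs of Grin1 (-0.15) and Shank3 (-0.17) turned; the cause was not tested. With 1 library left out, log2 fold changes ran from 0.07 to 0.22 for Syp, 0.18 to 0.47 for Syn2, -0.033 to 0.13 for Grin1 and -0.085 to 0.28 for Shank3. Pearson's r then ran from -0.41 to 0.45 for Syp and Syn2, 0.40 to 0.81 for Syp and Grin1, -0.16 to 0.37 for Syp and Shank3, -0.30 to 0.34 for Syn2 and Grin1, -0.16 to 0.28 for Syn2 and Shank3, and 0.62 to 0.89 for Grin1 and Shank3. With totals free of mitochondrial counts, a scaling also applied to the library properties after the data were seen, r of Syp and Shank3 was -0.054. As deviations from genotype means, r of Syp and Syn2 was -0.034. Without the 2 libraries farthest from the median, r was -0.24 for Syp and Syn2, -0.46 for Syn2 and Grin1 and -0.10 for Syn2 and Shank3. With library properties it was then 0.0105 for Syp and mitochondrial share, -0.19 for Syp and age, 0.56 for Syn2 and mitochondrial share, 0.37 for Syn2 and striatal level and -0.0061 for Grin1 and library total. The cause of these turns was not tested. The number of counts limits Syn2 most, whose counting error alone is 8.73% of a library's value.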
